A study of Mus musculus with 28 samples.

Results

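The major histocompatibility complex (MHC) class II antigen presentation genes were followed across 28 libraries of sorted mouse lung cells. The 10 members were chosen by name from a fixed list, of 19375 genes listed in all tables: H2-Aa, H2-Ab1, H2-Eb1, H2-DMa, H2-DMb1, H2-DMb2, H2-Oa, H2-Ob, Cd74 and Ciita. All 10 were listed in every table. The cells came from the lungs of wild-type C57BL/6 mice aged 8 weeks. Their labels are type 2 and type 1 alveolar epithelial cells (AEC2 and AEC1), basophils, and group 2 innate lymphoid cells (ILC2). Mice of the control group had no treatment, and the treated groups were given papain, a plant protease that provokes allergic lung inflammation, alone or together with FK506 (tacrolimus), which inhibits the phosphatase calcineurin. Papain was given into the nose at 50 µg in 40 µl per day. FK506 was given into the peritoneum at 0.2 mg per day in courses of 3 days set 2 days apart, the later one alongside papain. There were 2 libraries per treatment for AEC2 and for AEC1 and 3 per treatment for ILC2. Basophils had 3 papain libraries, 3 papain with FK506 libraries and 1 untreated library, whose title names controls 1 and 2. Each library was made from 10 ng of RNA with a kit that reads the 3' ends of transcripts. Whether a library is 1 mouse or a pool, and whether control mice received a vehicle, is not stated, so p-values measure only the spread between these libraries.

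Class II molecules are paired alpha and beta chains that carry peptides from endocytosed proteins to the cell surface, where helper T cells read them. The invariant chain Cd74 escorts newly made class II molecules and blocks their groove until it is cut by endosomal proteases. The DM pair then exchanges the remaining fragment for peptide, and the DO pair holds DM back. Ciita is the coactivator that switches the whole set on by docking onto factors bound at conserved promoter boxes. Dendritic cells, macrophages and B cells are the classical sources, and alveolar type 2 cells are a known nonclassical source in the lung.

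The H2 members form a cluster on chromosome 17, from H2-Oa (chr17:34092340-34095234) to H2-Eb1 (chr17:34305867-34316674, GRCm38), and Cd74 and Ciita lie elsewhere. RefSeq promoter sequences (GRCm38.p6) matched 7 members, and H2-Ab1, Cd74 and Ciita had no match. The 4 below are shown because they set the boxes through which class II genes are known to be switched on beside members that were abundant (H2-Eb1, H2-Aa) and members listed at 0 in most or all libraries (H2-DMb2, H2-Ob). Each reads 5′ to 3′ on the gene's strand and stops before the first annotated exon base. Capitals mark matches to the Y box CCAAT, read as ATTGG on the other strand, and to an X box core written here as AACNNATG, a pattern chosen after these promoters were read.
H2-Eb1 (chr17:34305727-34305866, plus strand): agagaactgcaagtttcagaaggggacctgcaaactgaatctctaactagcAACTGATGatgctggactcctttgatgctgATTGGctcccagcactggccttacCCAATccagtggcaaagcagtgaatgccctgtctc
H2-Aa (chr17:34287824-34287963, minus strand): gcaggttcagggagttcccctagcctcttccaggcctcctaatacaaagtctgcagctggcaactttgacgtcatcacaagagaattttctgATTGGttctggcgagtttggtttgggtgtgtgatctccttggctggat
H2-DMb2 (chr17:34145109-34145235, plus strand): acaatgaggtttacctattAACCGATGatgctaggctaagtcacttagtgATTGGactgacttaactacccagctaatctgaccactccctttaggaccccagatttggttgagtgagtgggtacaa
H2-Ob (chr17:34238765-34238902, plus strand): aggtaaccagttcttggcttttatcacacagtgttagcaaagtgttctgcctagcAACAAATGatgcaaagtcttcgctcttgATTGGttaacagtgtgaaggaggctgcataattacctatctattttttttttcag

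The X box core and an ATTGG 15 to 30 bases after it stood together in 4 of the 7 members. Positions are counted back from the RefSeq start of each gene. For H2-DMb2 and H2-Ob the printed run ends short of that start, where an exon of another annotated transcript begins. The core began 89 bases before the start of H2-Eb1, 121 before H2-DMb2, 92 before H2-DMb1 and 85 before H2-Ob, with 22, 23, 23 and 20 bases between it and the ATTGG. H2-Aa and H2-Oa held an ATTGG, 48 and 43 bases before the start, without the core. RefSeq gave H2-DMa unranked starts, near chr17:34122821 and near chr17:34125517. The 250 bases before the former held neither, and those before the latter held an ATTGG at 198 bases without the core. Which start the counted transcripts use was not determined. Among all 32851 promoter windows of 250 bases, 33.8% held CCAAT on either strand, 7.71% held the core on either strand, and 0.0791% (26 windows) held the spaced pair. Since the core was chosen after these promoters were read, the shares do not measure how unusual the members are. Lack of this core is not lack of an X box. These matches are letters in a window and were not tied to binding. H2-Ob and H2-DMb2, whose listed values are given below, carried the pair as well.

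Several facts of the libraries bear on the class II values. AEC2 untreated replicate 2 and AEC2 papain replicate 2 were nearly the same library under different labels. Their recovered reads differed by a chi-square of 2.51 per degree of freedom over 5551 genes, and they shared 97.6% of the genes found in either. The other 24 pairs within AEC2 or AEC1 gave 30.8 to 79.5 and 47.4 to 61.3%, leaving out AEC2 untreated replicate 1, whose rounded values give no reads. Which of these libraries goes against its label cannot be told, so AEC2 results are given with and without them. Libraries labelled AEC2 carried their markers (10 genes, summed at 119309.0 to 140165.6 reads scaled to a common library total, CPM). Libraries labelled AEC1 had less of the type 1 marker Ager (37.1 to 114.4 CPM) than those labelled AEC2 (1384.0 to 3505.7 CPM). Their fibroblast and smooth muscle list stood at 5844.7 to 15539.3 CPM, so the AEC1 label goes against Ager and this list. The type 1 list of 10 genes, which includes Ager, was divided. Its sum was lower under the AEC1 label (827.3 to 1121.4 CPM) than under the AEC2 label (1830.0 to 4275.4 CPM, most of it Ager). Zeros within the list ran the other way, with 2 to 5 genes under the AEC1 label against 4 to 6 under the AEC2 label. In all 7 libraries labelled basophil, the defining genes Mcpt8 and Fcer1a were listed at 0, and a list of 19 macrophage and monocyte markers summed to 3691.2 to 17138.2 CPM. The library labelled ILC2 papain with FK506 replicate 3 also goes against its label: Gata3 and Il1rl1, which define ILC2, were listed at 0, and the ILC2 marker list summed to 159 CPM, against 1626 to 4032 CPM in the other 8. Estimated depth was 847513 to 974739 reads in AEC1, 1206886 to 1336639 in 5 AEC2 libraries and about 2078948 to 3124491 in basophils. In the treated basophil libraries 60.9 to 89.6% of low values came out as whole reads, against 100% in these AEC libraries. Their depths are therefore rough. Depth is unknown for ILC2 and AEC2 untreated replicate 1, whose values were rounded. The housekeeping gene Gapdh was listed at 0 in 19 of 28 libraries, so a listed 0 is not read as absence.

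Class II transcripts were abundant in AEC2 and basophil libraries and low in AEC1 and most ILC2 libraries. The 10 members summed to 3489.7 to 6840.8 CPM in AEC2 and to 164.6 to 403.8 CPM in AEC1. They reached 1380.3 to 32350.8 CPM in basophil libraries and 62 to 1865 CPM in 8 of 9 ILC2 libraries. The library labelled ILC2 papain with FK506 replicate 3 stood apart at 17745 CPM. These levels were set across tables normalized separately, and fewer cells of a type cannot be told apart from less RNA per cell. The chains H2-Aa, H2-Ab1 and H2-Eb1 and Cd74 were found in nearly every library, H2-DMa and H2-DMb1 in some, and H2-DMb2, H2-Oa, H2-Ob and Ciita were listed at 0 in most libraries.

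**Figure D1:**
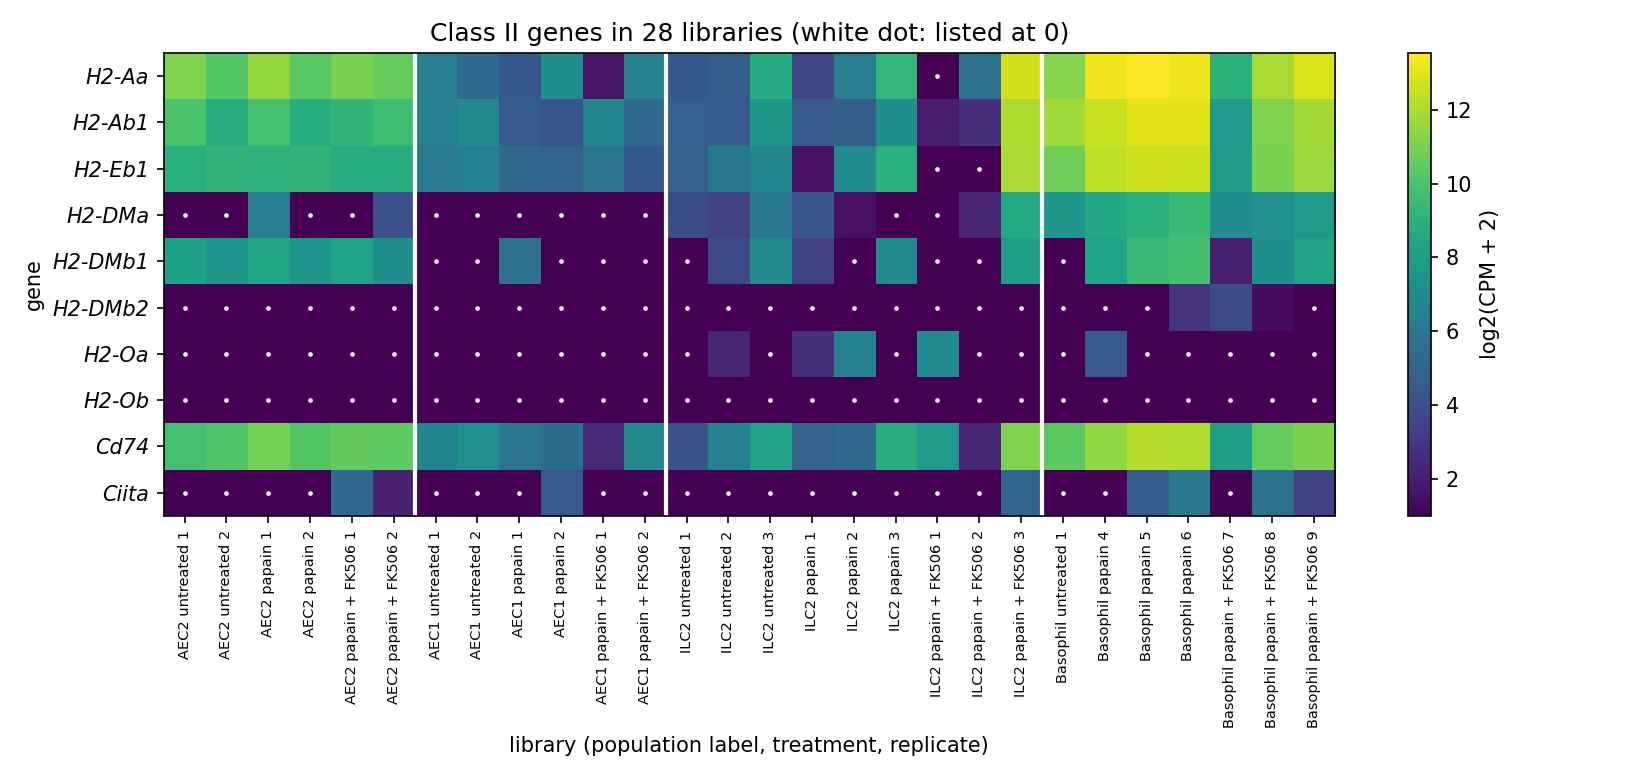
Heat map of log2(CPM + 2) for the 10 class II genes (rows) in 28 libraries (columns, split by white lines into AEC2, AEC1, ILC2 and basophil labels). White dots mark genes listed at 0. H2-Ob is listed at 0 throughout, and ILC2 papain + FK506 replicate 3 resembles the basophil columns.

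The members most often listed at 0 were those of the DO pair, the second DM beta chain and the coactivator. H2-Ob, the DO beta chain, was listed at 0 in all 28 libraries. H2-Oa, the DO alpha chain, was above 0 in 5 libraries, at 3, 5, 88 and 131 CPM in ILC2 untreated 2, papain 1, papain 2 and papain with FK506 1, and at 21.4 CPM in basophil papain 4. H2-DMb2 was above 0 in 3 basophil libraries, at 5.5, 12.2 and 0.7 CPM. These 3 genes passed the filter on low values (10 CPM in at least 2 AEC libraries, or 3 ILC2 or basophil libraries) in no comparison, and the other 7 passed in at least 1.

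Ciita, the coactivator, was listed at 0 in 20 of 28 libraries, as Gapdh was in 19. In AEC2 it was at 37.4 and 2.5 CPM in the papain with FK506 libraries and at 0 in the other 4, where H2-Aa stood between 1203.5 and 2979.6 CPM. It was at 20.5 CPM in AEC1 papain 2, 32 in ILC2 papain with FK506 3, and 22.9, 63.1, 48.2 and 8.9 CPM in 4 basophil libraries.

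AEC2 libraries carried more class II than AEC1 libraries, in every treatment. Both chains of the classical A molecule, the E beta chain, the invariant chain and the main DM beta chain were each higher in all 6 AEC2 libraries than in all 6 AEC1 libraries. H2-Aa, the A alpha chain, was at 2233.0 and 1203.5 CPM in untreated AEC2, 2979.6 and 1270.9 with papain, and 2000.6 and 1515.5 with papain and FK506. In AEC1 it was at 79.7 and 39.1, 20.1 and 144.5, and 1.2 and 89.6 CPM in the same order. The highest AEC1 library thus lay far below the lowest AEC2 library. Cd74, the invariant chain, was at 892.0 and 1079.6, 1961.3 and 1145.2, and 1458.7 and 1423.5 CPM in AEC2. It was at 99.9 and 155.3, 57.2 and 41.0, and 3.5 and 115.6 CPM in AEC1, so these groups did not overlap either.

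H2-Ab1, the A beta chain, ranged from 447.1 to 1028.0 CPM in AEC2 and from 18.5 to 125.4 CPM in AEC1. H2-Eb1, the E beta chain, was at 444.1 to 589.4 CPM in AEC2, against 20.1 to 84.0 CPM in AEC1. H2-DMb1, the DM beta chain that edits peptides with H2-DMa, was at 145.0 to 338.2 CPM in AEC2. In AEC1 it was at 46.6 CPM in papain 1 and listed at 0 in the other 5. Its partner H2-DMa was listed at 0 in all 6 AEC1 libraries and in 4 of 6 AEC2 libraries, with 81.6 CPM in papain 1 and 14.9 CPM in papain with FK506 2. The DM beta chain was therefore found in every AEC2 library, and the DM alpha chain in 2.

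In limma's fit over all treatments, 5 of the 7 members tested were higher in AEC2 (13.4% of 9841 genes were called in either direction). Differences are in log2(CPM + 2) after scaling. H2-Aa was higher by 5.60 (SE 0.65, adjusted p = 1.22e-06) and Cd74 by 4.64 (SE 0.60, adjusted p = 4.99e-06). H2-Ab1 was higher by 3.76 (SE 0.52, adjusted p = 1.35e-05), H2-Eb1 by 3.59 (SE 0.51, adjusted p = 1.89e-05) and H2-DMb1 by 6.13 (SE 0.90, adjusted p = 3.33e-05). H2-DMb1 passed the filter on low values only through AEC2 libraries, so a difference was built in, and its size depends on the pseudocount, since 5 AEC1 libraries were at 0. H2-Aa, H2-Ab1, H2-Eb1 and Cd74 also passed it on AEC1 libraries alone. H2-DMa (1.40, SE 0.89, adjusted p = 0.3) and Ciita (0.29, SE 0.90, adjusted p = 0.864) did not pass. The median of the tested members was 3.76, against -0.45 for all genes tested. Groups of the same 5 genes did not overlap, as for 7.49% of all genes tested.

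The call held for these 5 genes without either or both of the nearly identical libraries, though for H2-DMb1 the filter had built a difference in. Without both, H2-Aa was higher by 6.04 (adjusted p = 0.00607), Cd74 by 4.86 (adjusted p = 0.0103), H2-Ab1 by 4.01 (adjusted p = 0.0011), H2-DMb1 by 6.44 (adjusted p = 0.00558) and H2-Eb1 by 3.54 (adjusted p = 0.00102). Fits with edgeR and DESeq2 on the reads recovered from the CPM steps, which left out AEC2 untreated 1, also called these 5.

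**Figure D2:**
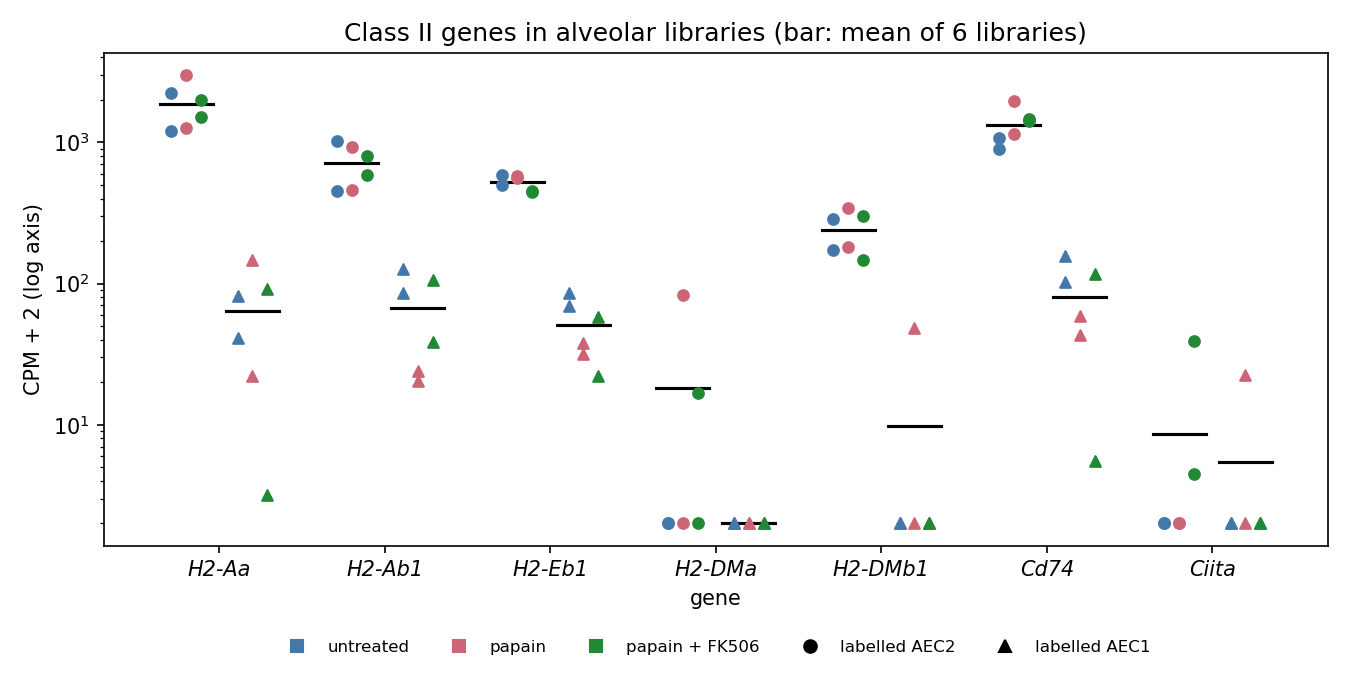
CPM + 2 on a log axis for the 7 class II genes above the filter, in libraries labelled AEC2 (circles) and AEC1 (triangles), coloured by treatment, with bars at the mean of 6 libraries. For H2-Aa, H2-Ab1, H2-Eb1, H2-DMb1 and Cd74 every circle lies above every triangle.

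Several transcripts that define classical presenting cells were listed at 0 in AEC2 libraries, where Gapdh too was listed at 0 in 5 of 6. Csf1r and Flt3, receptors of macrophages and of dendritic cells, and Zbtb46, Cd79a, C1qa, Itgax and Mrc1 were listed at 0 in all 6. Ptprc, the pan-leukocyte phosphatase CD45, was at 0.7 CPM in 1 of 6 and at 0 in the rest. All 11 dendritic cell markers were at 0 in all 6, B cell markers summed to 6.6 to 76.3 CPM (Cd79b up to 51.0), and of the 19 macrophage and monocyte markers 15 to 17 were at 0. That macrophage list still summed to 1828.8 to 4988.3 CPM in AEC2. It includes Lyz1, also known from type 2 cells, which reached 4902.0 CPM within the 12 AEC libraries. In AEC1 libraries Csf1r was at 47.8 to 132.4 CPM, the dendritic list at 0.0 to 264.9 CPM and the macrophage list at 421.1 to 694.7 CPM, beside class II sums of 164.6 to 403.8 CPM. Their part in the low AEC1 class II levels was not tested.

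Antigen processing genes divided in direction between the alveolar labels. Of 13 processing genes tested, 2 were higher in AEC2, 2 were lower and 9 did not pass. Of all 9841 genes tested, 467 were higher and 855 lower. Ifi30, the thiol reductase that unfolds antigens (3.50, SE 0.56, adjusted p = 8.61e-05), and the cathepsin Ctsc (3.21, SE 0.75, adjusted p = 0.00456) were higher. The cathepsin Ctsl (-2.06, SE 0.47, adjusted p = 0.00408) and the saposin precursor Psap (-1.80, SE 0.57, adjusted p = 0.0355) were lower. Without both nearly identical libraries Ifi30 (3.18, adjusted p = 0.015) and Ctsl (-2.27, adjusted p = 0.00242) still passed, and Ctsc (3.59, adjusted p = 0.0821) and Psap (-1.95, adjusted p = 0.115) did not. Psap also lost its call without AEC2 untreated 1, AEC2 papain 2, either untreated AEC1 library, AEC1 papain 1 or AEC1 papain with FK506 1 (adjusted p = 0.0653 to 0.0987), with a pseudocount of 0.5 (0.0551), with no filter (0.0625) and by edgeR (adjusted p = 0.105). Ctss, the protease that trims the invariant chain in professional presenting cells, was listed at 0 in all 6 AEC2 libraries.

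Among 14 tested regulators of class II, none was higher in AEC2 and 3 were lower, beside 467 higher and 855 lower of all 9841 genes. These were the promoter-binding factor Creb1 (-3.28, SE 1.02, adjusted p = 0.0328), the interferon gamma receptor chain Ifngr1 (-3.36, SE 0.97, adjusted p = 0.0214) and the kinase Jak1 (-3.09, SE 0.92, adjusted p = 0.0253). Without both nearly identical libraries Jak1 still passed (-4.23, adjusted p = 0.0384), and Creb1 (-3.14, adjusted p = 0.0877) and Ifngr1 (-2.52, adjusted p = 0.105) did not. The calls also depended on single libraries. Creb1 lost its call without AEC2 papain 1, AEC2 papain 2, AEC2 papain with FK506 2, AEC1 untreated 2, AEC1 papain 1, AEC1 papain 2 or AEC1 papain with FK506 1 (adjusted p = 0.0553 to 0.0885), with robust moderation (adjusted p = 0.0509) and by edgeR (adjusted p = 0.127). Ifngr1 lost it without AEC2 untreated 2 or AEC1 papain 2 (adjusted p = 0.0588 and 0.0791). Jak1 lost it without AEC2 papain 1, AEC2 papain with FK506 1, AEC1 papain 1 or either AEC1 papain with FK506 library (adjusted p = 0.0579 to 0.0752), with a pseudocount of 0.5 (adjusted p = 0.0572), with no filter (adjusted p = 0.0529), by edgeR (adjusted p = 0.126) and by DESeq2 (adjusted p = 0.115). Of the genes of turnover and costimulation, 0 of 2 tested were called, and 0 reached an unadjusted p under 0.05. H2-Ea was not listed, and H2-Eb2 and H2-Ea-ps were tested nowhere.

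Across the 12 AEC libraries, the genes whose log2 levels tracked the members' summed level most closely included the surfactant gene Sftpa1 and the lysozymes Lyz1 and Lyz2, all known from type 2 cells. Pearson's r was 0.991 for Cxcl15, 0.986 for Lyz1, Elovl1 and Lyz2, and 0.985 for Sftpa1. These values describe a separation of AEC2 from AEC1 labels that the points share, and carry no test. Across all 28 libraries the closest were the cathepsin Ctsb (0.831), Tgfbi (0.814), Lyz2 and Ctsh (0.784) and Ier3 (0.783).

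In AEC2, no class II gene passed the test for papain, nor for FK506 added to papain. H2-Eb1 was at 495.0 and 589.4 CPM in untreated AEC2, 554.3 and 577.6 with papain, and 447.6 and 444.1 with papain and FK506. H2-Ab1 was at 1028.0 and 447.1, 925.8 and 460.1, and 583.8 and 799.6 CPM. H2-DMb1 was at 286.0 and 170.1, 338.2 and 178.3, and 300.1 and 145.0 CPM. The treatments overlapped for H2-Ab1 and H2-DMb1. For H2-Eb1 the FK506 libraries lay below the others. For Cd74 the papain libraries lay above the untreated ones, narrowly so (1145.2 against 1079.6 CPM) in the 2 nearly identical libraries. The share of all genes with such a layout was not counted in AEC2, so neither is read as an effect of treatment.

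The limma fit called 0 of 6 tested members for papain against untreated (0% of 6719 genes), for papain with FK506 against papain (0%) and for papain with FK506 against untreated (0%). No member reached an unadjusted p under 0.05, and edgeR and DESeq2 on recovered reads called none. The members' medians were 0.04, -0.18 and -0.10, against 0.00, 0.06 and -0.04 for all genes tested. Cd74 differed by 0.45 (SE 0.40, adjusted p = 1) between papain and untreated, H2-Aa by 0.09 (SE 0.48) and H2-Ab1 by -0.21 (SE 0.56). Leaving out both nearly identical libraries left 1 untreated and 1 papain library, assumed to vary like the FK506 pair, and still called none.

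In AEC1, no class II gene passed the test for papain, and both papain libraries lay below both untreated ones for 3 of 4 tested members, a layout without overlap found in either direction for 33.4% of all 8178 genes. H2-Ab1 was at 84.2 and 125.4 CPM untreated, 22.2 and 18.5 with papain, and 103.9 and 36.6 with papain and FK506. H2-Eb1 was at 67.3 and 84.0, 36.0 and 29.7, and 56.0 and 20.1 CPM. The third was Cd74, whose values stand above, while H2-Aa overlapped. Type 2 markers had the same layout: the AEC2 list summed to 6443.2 and 9879.1 CPM in untreated AEC1 and to 2374.1 and 1541.7 with papain, and to 2053.8 and 4513.1 CPM with papain and FK506. Its surfactant gene Sftpc was at 2304.1 and 3967.7 CPM untreated against 931.8 and 453.1 with papain. Their part in the class II levels was not tested.

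H2-Ab1 differed by -2.22 (SE 0.96, adjusted p = 0.531) between papain and untreated, the only member with an unadjusted p under 0.05. The fit called 0 of 4 members in each AEC1 comparison, where 0% of 8178 genes were called for papain against untreated, 0% for papain with FK506 against papain and 0.0245% for papain with FK506 against untreated. In the comparison of FK506 with papain, and with untreated, 0 members reached an unadjusted p under 0.05, and edgeR and DESeq2 called none in any of the 3. The members' medians were -1.23, -0.60 and -1.54, against 0.16, 0.08 and 0.30 for all genes.

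Whether the alveolar labels differed in their response was tested as an interaction. No member of 7 was called for the response to papain (0% of 9841 genes) or to FK506 on top of papain (0%). For H2-Ab1 the response to papain differed by 2.06 (SE 1.05, adjusted p = 0.972), AEC2 minus AEC1. For Ciita the response to FK506 differed by 4.53 (SE 1.88, adjusted p = 0.816), resting on 3 libraries above 0, and it alone had an unadjusted p under 0.05. By edgeR and DESeq2, 0 members were called in either.

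**Figure D3:**
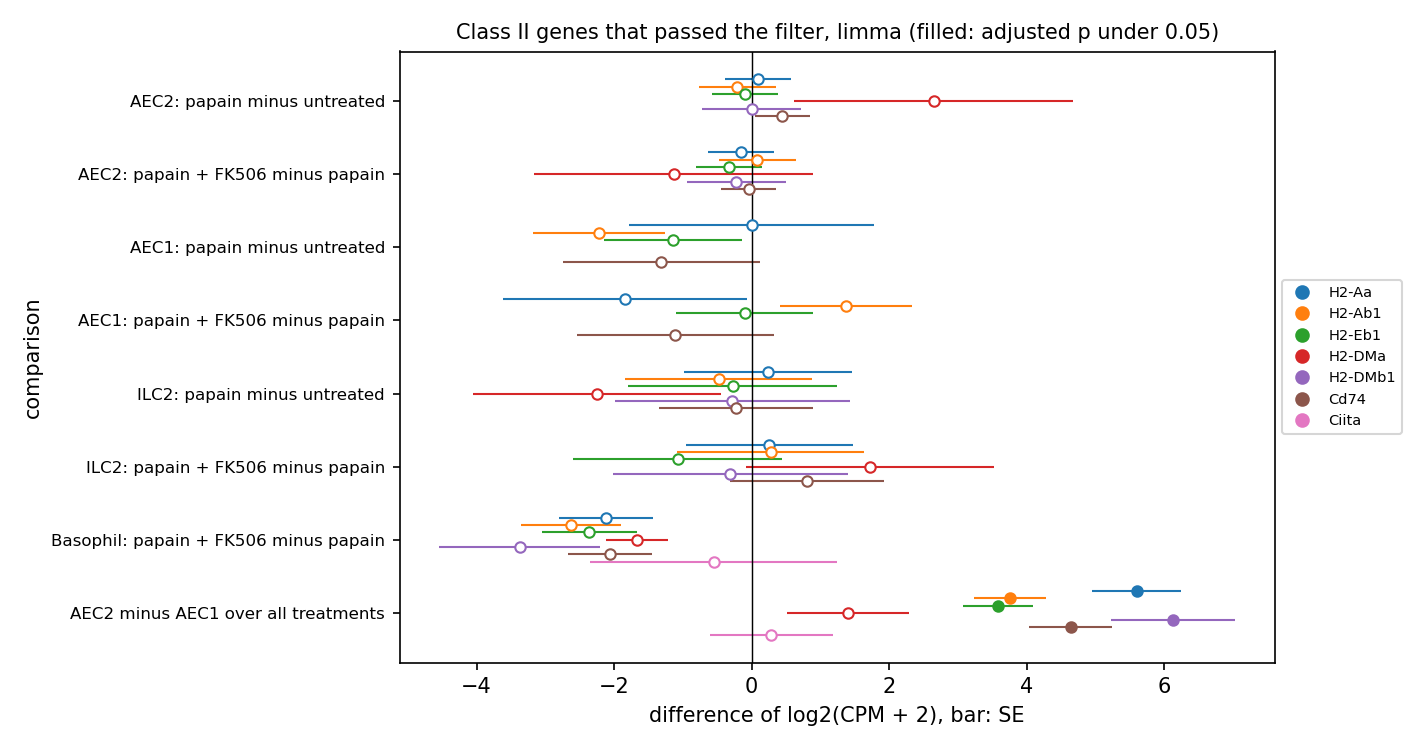
Differences of log2(CPM + 2) with SE for class II genes that passed the filter in 8 comparisons, from limma, filled where the adjusted p was under 0.05. Filled points occur for the difference of AEC2 minus AEC1 alone among these 8, and the basophil points for FK506 lie left of 0.

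The members' sum stayed at 1865 CPM or less in 8 libraries labelled ILC2, and the one above it is the library whose ILC2 label goes against its markers. H2-Aa was at 19, 24 and 417 CPM in untreated ILC2, 11, 80 and 616 with papain, and 0, 51 and 6777 with papain and FK506. Cd74 was at 15, 92 and 293, then 27, 36 and 467, then 212, 3 and 2237 CPM. H2-Ab1 was at 25, 23 and 195, then 21, 24 and 142, then 2, 5 and 4143 CPM. In each treatment the replicate numbered 3, which carries another code in the deposited file names than replicates 1 and 2, was the highest for all 3 genes.

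Markers of several other cell types were also higher in the ILC2 replicates numbered 3. The macrophage and monocyte list summed to 1733, 2266 and 12682 CPM in these (untreated, papain, papain with FK506), and to 275 to 511 CPM in the other 6, where the members summed to 62 to 363 CPM. In the same order, the AEC2 list summed to 4969, 6789 and 4613 CPM (8 to 583 in the other 6), the fibroblast and smooth muscle list to 3188, 1237 and 780 CPM (39 to 222) and the endothelial list to 706, 486 and 229 CPM (0 to 145). In papain with FK506 replicate 3, Csf1r was at 882 CPM, C1qa at 1845 CPM and none of the 19 markers was at 0. The part of these markers in the class II level was not tested.

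With the code as a term, 0 of 6 tested members were called for papain against untreated (0% of 6271 genes), for papain with FK506 against papain (0.0159%) and for papain with FK506 against untreated (0%), and 0 reached an unadjusted p under 0.05. The members' medians were -0.27, 0.27 and -0.36, against -0.22, 0.20 and -0.01 for all genes. H2-Aa differed by 0.26 (SE 1.22, adjusted p = 0.998) between papain with FK506 and papain. Within replicates 1 and 2 alone, 0 members were called in each comparison, and without the library labelled papain with FK506 replicate 3, 0 were called in either FK506 comparison.

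The libraries labelled basophil held the highest class II levels of the series under papain, with lower levels under FK506 than under papain alone. H2-Aa stood at 9739.7, 11868.7 and 9830.7 CPM with papain alone, against 525.0, 3962.1 and 7301.9 CPM with FK506 added. H2-Ab1 was at 5712.7, 8273.2 and 8315.6 CPM against 218.2, 2237.6 and 3642.8 CPM. For both genes every FK506 library lay below every papain library, and replicate 7 was far below the other FK506 libraries.

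The other abundant members had the same layout. Cd74 was at 2815.4, 4533.3 and 4171.3 CPM with papain against 248.3, 1495.6 and 2162.2 CPM with FK506 added. H2-Eb1 was at 4993.4, 6396.0 and 6226.7 CPM against 233.0, 2063.3 and 3324.2 CPM. The peptide-editing pair was lower as well: H2-DMa was at 378.4, 515.4 and 747.3 CPM against 141.4, 158.3 and 217.3 CPM, and H2-DMb1 at 310.2, 741.3 and 866.0 CPM against 2.2, 147.3 and 316.6 CPM. Groups overlapped for H2-DMb1, by its lowest papain library, and for Ciita (0.0, 22.9 and 63.1 CPM against 0.0, 48.2 and 8.9 CPM).

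No member passed the test. The fit called 0 of 7 members for papain with FK506 against papain (0% of 5853 genes), and 6 of 7 had an unadjusted p under 0.05, as did 354 of all genes. Groups did not overlap for 5 of 7 members, as for 11.4% of all genes tested. H2-Ab1 differed by -2.63 (SE 0.73, adjusted p = 0.664), H2-Eb1 by -2.36 (SE 0.69, adjusted p = 0.687), H2-Aa by -2.12 (SE 0.68, adjusted p = 0.687) and Cd74 by -2.06 (SE 0.61, adjusted p = 0.687). H2-DMa differed by -1.67 (SE 0.45, adjusted p = 0.645), H2-DMb1 by -3.37 (SE 1.17, adjusted p = 0.687) and Ciita by -0.55 (SE 1.80, adjusted p = 0.96). The members' median was -2.12, against -0.07 for all genes tested.

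FK506 replicate 7 set much of this size. Without it H2-Ab1 differed by -1.38, H2-Eb1 by -1.18, H2-Aa by -0.98, Cd74 by -1.08, H2-DMb1 by -1.45 and H2-DMa by -1.51 (adjusted p = 0.876 for each). With a pseudocount of 10 in place of 2, H2-Ab1 passed (-2.62, adjusted p = 0.0227).

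**Figure D4:**
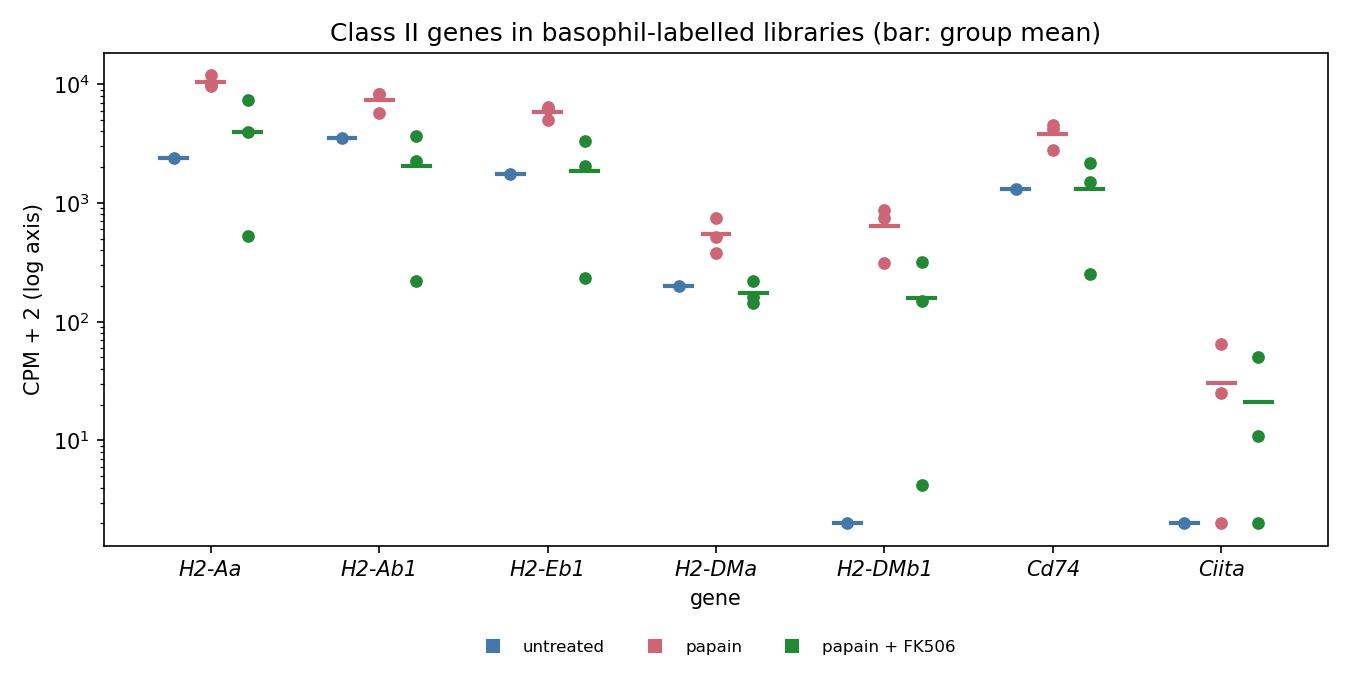
CPM + 2 on a log axis for 7 class II genes in the 7 libraries labelled basophil, with bars at group means, for 1 untreated, 3 papain and 3 papain + FK506 libraries. The papain points lie above the FK506 points for H2-Aa, H2-Ab1, H2-Eb1, H2-DMa and Cd74, and the lowest FK506 point is replicate 7 in each.

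Markers of several cell types differed between papain and FK506 libraries beside class II. Csf1r stood at 1397.3, 1505.0 and 1517.5 CPM with papain, against 55.9, 619.2 and 803.6 CPM with FK506 added, without overlap. Divided by Csf1r, the members' sum was 17.2, 21.5 and 19.9 with papain and 24.7, 16.3 and 21.1 with FK506, so these ratios overlapped. Divided by the macrophage and monocyte list, whose sums were 9495.5 to 17138.2 CPM with papain (1 to 2 of 19 genes at 0) and 3691.2 to 11917.8 CPM with FK506 (0 to 3 at 0), the members' sum was 2.52, 1.89 and 1.76 with papain. It was 0.374, 1.12 and 1.42 with FK506, without overlap. This list includes Lyz1, which is also known from type 2 cells. The dendritic list summed to 32.3 to 734.7 CPM over the 7 libraries, B cell markers to 4.8 to 224.7 CPM, and Cd79a was at 0 in all 7. The AEC2 list was higher with FK506 (3123.3 to 11315.7 CPM) than with papain (1397.6 to 2555.2 CPM), and so was the fibroblast and smooth muscle list (2028.8 to 2812.7 against 251.9 to 831.1 CPM), both without overlap. FK506 replicate 7, the lowest in class II, also held Gata3 at 141.8 CPM, Il1rl1 at 99.5 CPM and an ILC2 list sum of 1473.2 CPM, against 191.8 to 417.5 CPM in the other 5 treated libraries. The part of these markers in the class II differences was not tested.

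**Figure D5:**
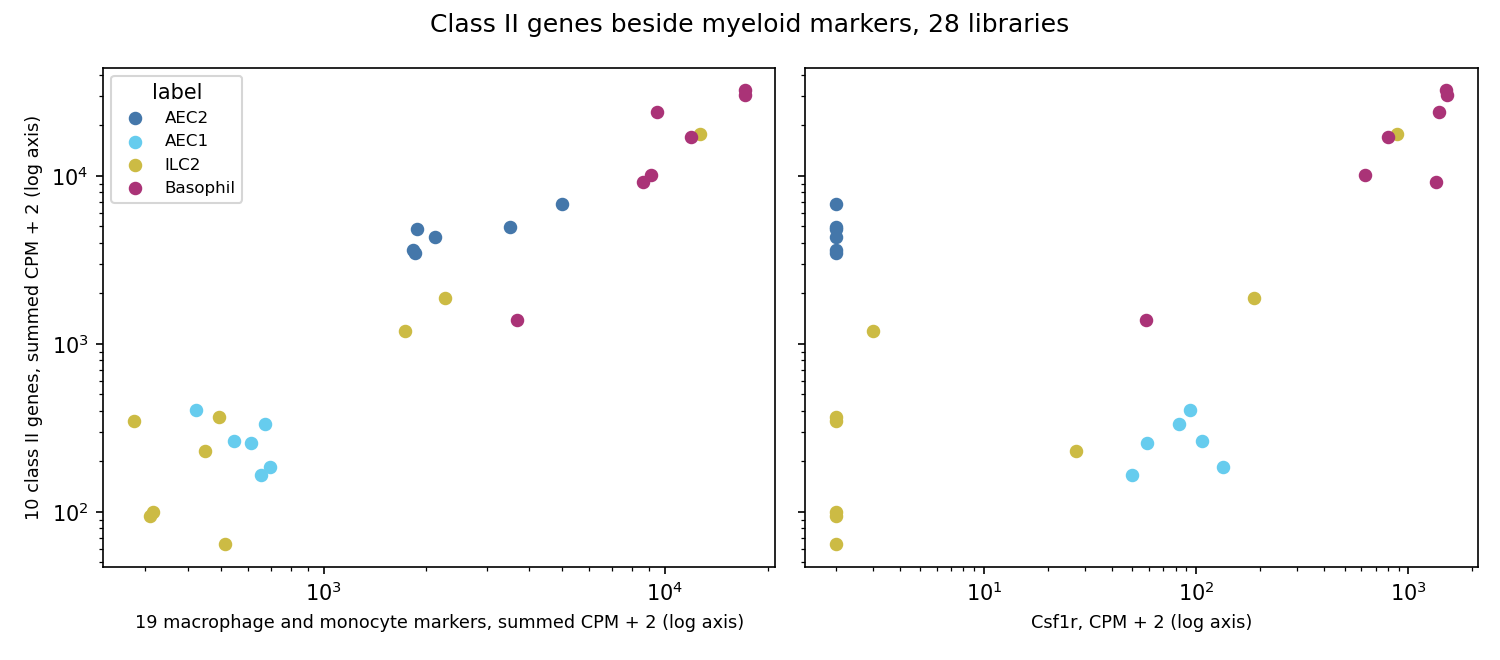
Summed CPM of the 10 class II genes against the summed macrophage and monocyte list (left) and against Csf1r (right), each plus 2 on log axes, 1 point per library, coloured by label. AEC2 points stand at 3489.7 to 6840.8 CPM of class II with Csf1r at 0, whereas the ILC2 and basophil points at 10113.1 CPM of class II or more all have Csf1r at 619.2 CPM or more.

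The processing genes showed no call under FK506 in basophil libraries. Of 13 tested, 0 were called and 1 had an unadjusted p under 0.05: Ifi30, with means of 1253 CPM with papain and 644 CPM with FK506 (-1.16, SE 0.45, adjusted p = 0.707). Ctss stood at 2010.3, 3527.6 and 2826.6 CPM with papain, against 262.7, 2425.1 and 2525.5 CPM with FK506, with overlap. Of 11 tested regulators, 0 were called and 0 reached an unadjusted p under 0.05. Of 5 tested genes of turnover and costimulation, 0 were called, and Cd83, which slows class II turnover at the surface, had the largest size (-1.47, SE 0.52, adjusted p = 0.687).

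The single untreated basophil library lay below all 3 papain libraries for H2-Aa, H2-Ab1, H2-Eb1, H2-DMa, H2-DMb1 and Cd74. For Ciita it did not, since papain replicate 4 was listed at 0 too. This comparison has no spread of its own for the untreated side. H2-Aa was at 2396.0 CPM, H2-Ab1 at 3515.1, H2-Eb1 at 1739.8, Cd74 at 1310.6 and H2-DMa at 199.2 CPM, while H2-DMb1 and Ciita were listed at 0. The test assumes that this library varies like the others. It called 1 of 7 members, where 23.1% of 5853 genes were called: H2-DMb1, listed at 0 against a mean of 639 CPM with papain (adjusted p = 0.00188, no fold is given). It passed the filter through treated libraries alone, so a difference was built in. That call was lost with no filter on low values (adjusted p = 0.061) and with robust moderation (adjusted p = 0.0992). Without papain replicate 4, H2-DMa passed too (2.04, adjusted p = 0.0393).

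The remaining members did not pass. H2-Aa differed by 2.51 (SE 0.96, adjusted p = 0.0709), H2-DMa by 1.78 (SE 0.64, adjusted p = 0.0567), H2-Eb1 by 2.13 (SE 0.98, adjusted p = 0.13), Cd74 by 1.91 (SE 0.86, adjusted p = 0.124) and H2-Ab1 by 1.45 (SE 1.03, adjusted p = 0.31). The members' median was 2.13, against the 3.05 of all genes tested, and 6 of 7 members lay below that shift. With a filter of 3 libraries and 1 untreated library, no gene could pass through the untreated side alone. The shift of all genes thus leans upward by design and is no neutral reference. The untreated library had 2002 genes above 0, against 6449 to 7153 in the papain libraries. Its macrophage list summed to 8604.7 CPM, with 6 of 19 markers at 0 and Csf1r at 1343.8 CPM.

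Among the processing genes and regulators, calls against this single library were set in a table where 23.1% of genes were called and the median of all genes was 3.05. Of 13 processing genes, 7 were called as higher with papain and 0 as lower, with a median of 1.88, below that of all genes. They were the cathepsins Ctsl, Ctsd, Ctsz and Ctsc, the asparaginyl protease Lgmn, the lysosomal membrane protein Lamp1 and the peptidase Tpp1. Ctsd had a mean of 876 CPM with papain against 147 CPM (2.86, SE 0.56, adjusted p = 0.00166), and Ctsz 313 CPM against 2.4 CPM (6.30, SE 0.78, adjusted p = 4.07e-05). No gene could pass the filter through the single untreated library alone, so the medians given here lean upward. Ctsz, Ctsc (0.5 CPM untreated) and Lgmn (0 CPM untreated) passed the filter through treated libraries alone, so their differences were built in. Of 11 regulators, 3 were called as higher and 0 as lower, with a median of 2.80, also below that of all genes. These were Spi1, Irf8 (0.5 CPM untreated) and Jak1 (0 CPM untreated), the last 2 again through treated libraries alone. Spi1, the myeloid factor PU.1, had a mean of 222 CPM against 12.5 CPM (4.26, SE 1.02, adjusted p = 0.00673). With no filter, 5 of these calls were lost: Lgmn (adjusted p = 0.0785), Ctsl (adjusted p = 0.0522), Lamp1 (adjusted p = 0.052), Spi1 (adjusted p = 0.0691) and Irf8 (adjusted p = 0.183). With robust moderation Lgmn (adjusted p = 0.099) and Irf8 (adjusted p = 0.168) were lost. Lamp1 also lost its call without papain replicate 6 (adjusted p = 0.0681) and with scaling to the sum over shared genes (adjusted p = 0.0583). Irf8 lost its call without any 1 of the 3 papain libraries (adjusted p = 0.0502 to 0.0772).

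Counting limits touch a few members. Of the 50-base stretches in the last 500 bases of H2-DMb1 transcripts, 20.4% also occur in H2-DMb2 transcripts, so the authors' counting could split reads between them. The same share was 0% for the other H2 members but H2-DMb2, whose 13.6% lies in stretches shared with 164 other genes, H2-DMb1 not among them. When aligned, the last 500 bases of H2-DMb1 and H2-DMb2 were 63.6% identical, with a longest identical run of 23 bases. The microRNA gene Mir5107 overlaps an exon of Cd74 on the same strand. An exon of Brd2 overlaps H2-DMa on the opposite strand, an antisense gene overlaps H2-Oa and Dexi overlaps Ciita, and no source used here gives the strand setting of the counts.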

How the data were processed

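RNA of cells sorted from mouse lung was read at transcript 3' ends. Builds mm10 and GRCm38.p6 and the tools featureCounts 1.6.0 and STAR 2.7.0c are named, without settings, in the submitters' processing notes. The authors deposited CPM for AEC1, AEC2 and basophil libraries. For AEC2 untreated replicate 1 and all ILC2 libraries the deposited values are a score, CPM rounded to whole numbers.

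Genes entered a comparison at 10 CPM or more in 2 AEC, or 3 ILC2 or basophil, libraries. Values were divided by TMM factors (edgeR 4.0.16), 2 was added, and limma 3.58.1 in R 4.3.3 (empirical Bayes, variance trend) fitted their log2 over all libraries of a population, two-sided, with Benjamini-Hochberg adjustment over all genes tested and a threshold of 0.05. ILC2 fits had a term for the code in the file names. The pseudocount understates changes of low genes. For AEC libraries 1 read's step in CPM was found from low values, 100% of which came out whole within 0.1 read, and edgeR's quasi-likelihood test and DESeq2 1.42.0 were run on these reads (for AEC2 against AEC1, edgeR called 891 genes). The fitting code was tested on simulated data. Promoters came from RefSeq, and overlaps and transcript ends from GENCODE on GRCm38 (Biopython for identity).

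All 10 members are named, with fixed lists of processing genes, regulators and costimulation genes. The members and lists were chosen with earlier results of these data known. The 28-library and 12-library neighbours are the 5 non-members, at a mean of 10 CPM or more, of highest Pearson r with log2 of the members' sum plus 2.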

Additional observations from a re-analysis of the deposited data

Results flagged for a closer look

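Of 66 pairs of populations and treatment comparisons looked at for a member, 4 moved in opposite directions in every library, all between AEC1 and basophil labels, and the difference itself was not tested, since the tables were normalized separately. For papain against untreated, H2-Ab1 differed by -2.22 in AEC1 and 1.45 in basophil libraries (a gap of -3.67), H2-Eb1 by -1.14 and 2.13 (a gap of -3.27) and Cd74 by -1.31 and 1.91 (a gap of -3.22), on the log2 scale. These rest on 1 untreated basophil library. For papain with FK506 against papain, H2-Ab1 differed by 1.38 in AEC1 and -2.63 in basophil libraries (a gap of 4.01). None of these 8 differences passed its own test.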

How the results depend on the processing

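Of 740 recomputed values over 49 results, 682 were taken as unchanged. For a gene this meant the same direction and call, and for a count of called members the same number. Where a fit gave no adjusted p for a gene, direction alone was compared. No gene reversed direction. The count of called members was 5 of 7 for AEC2 against AEC1 under all 22 alternatives. These included H2-DMb1, whose difference the filter had built in. The count was 0 in every AEC, ILC2 and interaction comparison of treatments under all alternatives. For papain with FK506 against papain in basophil libraries it rose from 0 to 1 with a pseudocount of 10. For papain against the untreated basophil library it went from 1 to 2 with a pseudocount of 0.5, 3 with a pseudocount of 10 and 0 without a filter, and was 1 to 2 with 1 papain library left out (2 without replicate 4). The causes were not tested. Leaving out the untreated basophil library gives no value.

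The replicate block left the count at 5 for AEC2 against AEC1 and at 0 elsewhere. The samples share only a number: same-numbered deviations correlated at -0.02 to 0.017 in AEC1, and not above 0.1 for every ILC2 pair (0.047 to 0.228). In AEC2 untreated and papain the correlation of 0.447 goes with the nearly identical pair.

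Counts over all genes moved more. For FK506 against papain they ran from 0 to 166 in AEC2, 0 to 84 in AEC1 and 0 to 11 in basophils, for papain against untreated from 0 to 305 in AEC1, and for AEC2 against AEC1 from 751 to 2202. Depth is unknown for ILC2 libraries and AEC2 untreated replicate 1, so no counting limit is given for them. The removal of both nearly identical libraries was chosen after seeing the data.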
